A study of Mus musculus with 6 samples.

Results

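The genes described here are 10 mast cell genes measured in bulk RNA-seq libraries of sorted tumor T cells. They are the rows of the deposited count table whose gene name was Cpa3, Cma1, Tpsb2, Mcpt1, Mcpt2, Mcpt4, Ms4a2, Fcer1a, Hdc or Gata2, and all 10 were present among the 53153 gene names of the table. They are known mast cell genes and were chosen by name, with earlier results of these data known. The libraries came from gastrointestinal stromal tumors (GIST) of C57BL/6J Kit V558del/+ mice aged 8 to 10 weeks, a model in which every animal, control or treated, carries an activating Kit mutation. Vehicle mice gave 3 libraries. Imatinib mice gave 3 more and were kept for 1 week on drinking water with 600 mg/L of the KIT inhibitor imatinib. According to the methods of the study the cells were sorted from tumor as CD45+CD3+NK1.1-TCRγδ+, whereas the description of the series speaks of regulatory T cells. The sort did not select mast cells. In bulk RNA, fewer cells of a type and less RNA per cell cannot be told apart.

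Mast cells are tissue-resident granulocytes that mature under KIT signaling, driven by KIT ligand, and store proteases and histamine in granules. An antigen that crosslinks IgE on the high-affinity receptor FcεRI makes them release those granules. In the mouse, mast cells of mucosal surfaces are marked by the chymases encoded by Mcpt1 and Mcpt2, whereas those of connective tissue are marked by the chymases of Mcpt4 and Cma1, the tryptase of Tpsb2 and the carboxypeptidase of Cpa3.

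Each library held between 21333897 and 25214210 counts of named genes, and no pair of libraries was alike within sampling noise. Counts of Trdc, which encodes the constant part of the δ T cell receptor chain, ran from 8668 to 14810 on vehicle and from 17175 to 27372 on imatinib. Those of Cd3e, a CD3 gene of T cells, ran from 2906 to 4239 and from 3808 to 6897, and its groups overlapped. Foxp3, which defines regulatory T cells, had between 0 and 18 counts a library. RNA of other cells was abundant, since C1qa of macrophages had between 24161 and 76660 counts. The labels do not say that each of the 6 libraries came from a separate mouse. The p-values below cover only the variation among libraries, which may be technical.

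The 10 genes had 1503 counts in all 6 libraries together, and 749 of these were from Hdc. Of the 60 values (10 genes in 6 libraries), 25 were 0. Vehicle 1, 2 and 3 held counts of 5, 6 and 4 of the genes, and imatinib 1, 2 and 3 held counts of 3, 7 and 10. Imatinib 3 was therefore the only library in which every one of the 10 genes was detected.

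The 4 chymase genes lie together on chromosome 14, so their sequences are shown for how far reads can tell them apart. On GRCm38 (GENCODE M21 annotation) Cma1 spans chr14:55941451-55944675 and Mcpt4 spans chr14:56059629-56062313, both on the minus strand. Mcpt1 at chr14:56017971-56020384 and Mcpt2 at chr14:56042041-56044642 lie between them on the plus strand. Mcpt9, a neighboring chymase gene of the same cluster that was added after its values were seen, is shown for comparison. The opening 90 bases of exon 2, which is coding throughout and 151 bases long in each gene, are given in the sense of the gene, with capitals where a base differs from Mcpt1.
Mcpt1, chr14:56018561-56018650, plus strand: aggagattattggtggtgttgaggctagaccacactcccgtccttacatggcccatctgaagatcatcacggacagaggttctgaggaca
Mcpt2, chr14:56042701-56042790, plus strand: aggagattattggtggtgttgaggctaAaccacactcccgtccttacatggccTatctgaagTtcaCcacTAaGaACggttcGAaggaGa
Mcpt4, chr14:56061635-56061724, minus strand: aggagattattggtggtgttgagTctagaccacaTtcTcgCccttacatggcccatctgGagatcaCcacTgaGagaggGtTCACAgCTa
Cma1, chr14:55943760-55943849, minus strand: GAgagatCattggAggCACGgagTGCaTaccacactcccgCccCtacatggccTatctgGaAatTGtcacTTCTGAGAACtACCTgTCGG
Mcpt9, chr14:56028625-56028714, minus strand: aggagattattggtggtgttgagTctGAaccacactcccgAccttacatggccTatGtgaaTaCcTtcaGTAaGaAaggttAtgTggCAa
Over the whole exon Mcpt2 was 89.4% identical to Mcpt1, Mcpt4 85.4%, Mcpt9 84.8% and Cma1 61.6%. In stretches of 50 bases of their annotated transcripts, Mcpt1 and Mcpt2 shared none with any other gene. Cma1 shared 5.38% with Gm48934, and Mcpt4 shared 5.48% with Cma2. The bulk of each transcript was thus distinct at that length, and a small share of the Cma1 and Mcpt4 counts is uncertain.

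The mucosal chymases were present in both groups and nearly absent from 3 of the 6 libraries. Mcpt1 had 2, 90 and 0 counts in vehicle 1, 2 and 3, and 4, 159 and 76 counts in imatinib 1, 2 and 3. Mcpt2 had 2, 38 and 0 counts in the vehicle libraries and 0, 57 and 49 in the imatinib libraries. Both genes were high in vehicle 2, imatinib 2 and imatinib 3 and low in vehicle 1, vehicle 3 and imatinib 1, so the groups overlapped for each. Neither passed the test. Under the quasi-likelihood test of edgeR, adjusted over 16621 genes by the Benjamini-Hochberg method, Mcpt1 had a log2 fold change (imatinib over vehicle) of 1.46 with an SE of 1.95 and an adjusted p of 0.668. Mcpt2 had a log2 fold change of 1.47 with an SE of 1.73 and an adjusted p of 0.614. Vehicle 2 carried 90 of the 92 vehicle counts of Mcpt1, and without it the log2 fold change was 6.33 with an adjusted p of 0.12, whereas without imatinib 2 it was 0.35 with an adjusted p of 0.941. That of Mcpt2 ran from 0.84 without imatinib 2 to 5.14 without vehicle 2, with no adjusted p under 0.189 when any 1 library was left out.

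Of the counts of this pair, Mcpt1 took 70.3% in vehicle 2 (exact binomial 95% interval 61.6% to 78.1%), 73.6% in imatinib 2 (67.2% to 79.4%) and 60.8% in imatinib 3 (51.7% to 69.4%). These intervals cover counting error only, and neighboring ones overlap. The ratio of the pair was thus alike within counting error between vehicle 2 and imatinib 2, where the summed count was 128 and 216.

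The connective tissue proteases were measured mostly in imatinib 3, and Cpa3 also in vehicle 2. Cpa3, the carboxypeptidase of mast cell granules (chr3:20215620-20242181, minus strand), had 0, 10 and 1 counts in the vehicle libraries and 0, 1 and 39 in the imatinib libraries. Cma1 had 0 counts in all vehicle libraries and 0, 4 and 30 in imatinib 1, 2 and 3. Both genes were highest in imatinib 3, and both were at 0 in imatinib 1, as they were in vehicle 1. Mcpt4 had 28 counts in imatinib 3 and 0 in the other 5 libraries. Tpsb2, the tryptase gene on chromosome 17 (chr17:25366305-25369098, plus strand), had 22 counts in imatinib 3 and likewise 0 elsewhere. These last genes each rest on a single library.

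All 4 of these genes were under the filter on low counts and have no value in the edgeR test. Cma1, Mcpt4 and Tpsb2 had 0 vehicle counts, so a ratio for them could only point upward. Against a floor of 3 counts over the vehicle group, the measured level over the imatinib group was 11.9-fold higher for Cma1, 9.80-fold for Mcpt4 and 7.70-fold for Tpsb2. Of the imatinib counts behind these ratios, imatinib 3 held 30 of 34 for Cma1, 28 of 28 for Mcpt4 and 22 of 22 for Tpsb2. The ratios thus describe that library and not the group. With no filter on low counts edgeR gave Cma1 an adjusted p of 0.0637, and DESeq2 gave it 0.0348. For Mcpt4 the values were 0.167 and 0.114, for Tpsb2 0.168 and 0.177 and for Cpa3 0.572 and 0.555.

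**Figure D1:**
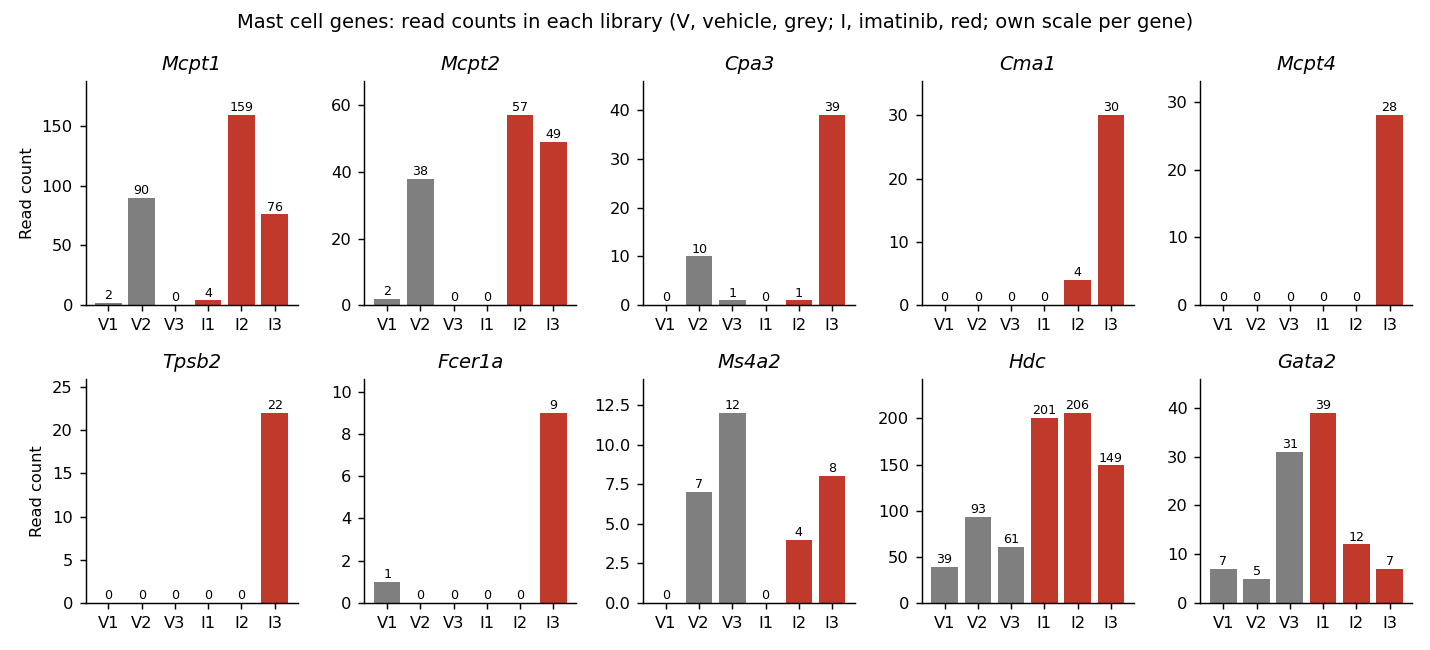
Read counts of the 10 genes in each library, 1 panel a gene with its own vertical scale from 0; grey bars are vehicle 1 to 3 (V1 to V3) and red bars imatinib 1 to 3 (I1 to I3), with the count above each bar. Mcpt4 and Tpsb2 appear in imatinib 3 alone, whereas Hdc has at least 149 counts in each imatinib library and at most 93 on vehicle.

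The makeup of the proteases differed between libraries of like total. Vehicle 2 held 138 protease counts, imatinib 2 held 221 and imatinib 3 held 244, against 4, 1 and 4 in vehicle 1, vehicle 3 and imatinib 1. Mcpt1 and Mcpt2 took 100% of the 128 chymase counts of vehicle 2 (exact interval 97.2% to 100%) and 98.2% of the 220 of imatinib 2 (95.4% to 99.5%). In imatinib 3 they took 68.3% of 183 (61.0% to 75.0%), an interval below those of the other libraries with over 100 counts. The connective tissue genes Cpa3, Cma1, Mcpt4 and Tpsb2 together had 10 counts in vehicle 2, 5 in imatinib 2 and 119 in imatinib 3. Between groups the mean mucosal share was 100% over 2 vehicle libraries with any chymase count and 88.8% over 3 imatinib libraries (two-sided exact permutation test, p = 0.7, where 0.1 is the smallest possible). That difference of -11.2 percentage points was -0.91 without imatinib 3. Vehicle 1 and imatinib 1 entered the means with 4 chymase counts each, where the exact interval ran from 39.8% to 100%.

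Levels per kilobase of exon, as CPM (counts scaled to a common library total, after TMM adjustment of the totals) per kb, are given by size within imatinib 3. The intervals of neighbors in that order overlapped. Mcpt1 was highest at 3.34 (exact Poisson 95% interval 2.63 to 4.18), followed by Mcpt2 at 2.06 (1.52 to 2.72). Cma1 at 1.23 (0.827 to 1.75), Cpa3 at 1.15 (0.814 to 1.57) and Mcpt4 at 1.13 (0.748 to 1.63) did not differ beyond counting error, and Tpsb2 was at 0.615 (0.385 to 0.931). In imatinib 2 the level per kb was 7.76 for Mcpt1, 2.66 for Mcpt2 and 0.182 for Cma1, the next protease. In vehicle 2 it was 4.03 for Mcpt1, 1.63 for Mcpt2 and 0.299 for Cpa3. Mcpt1 thus led Mcpt2 in each of these libraries, while the gene in the next place differed.

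**Figure D2:**
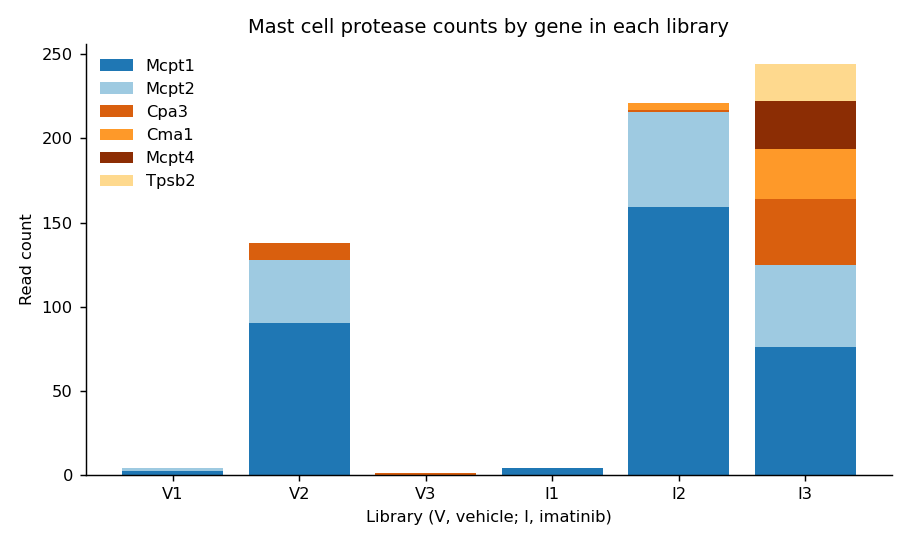
Stacked read counts of the 6 mast cell protease genes in each library, with Mcpt1 and Mcpt2 in blue and the connective tissue genes Cpa3, Cma1, Mcpt4 and Tpsb2 in orange and brown. Vehicle 2 and imatinib 2 are almost wholly blue, imatinib 3 holds 119 counts of the other genes among 244, and the remaining libraries hold 4 or fewer counts.

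The chains of the IgE receptor that restrict it to mast cells and basophils were at the limit of detection. Fcer1a, which encodes the IgE-binding α chain (chr1:173221284-173227214, minus strand), had 1, 0 and 0 counts on vehicle and 0, 0 and 9 on imatinib. Ms4a2, which encodes the signal-amplifying β chain (chr19:11615523-11623719, minus strand), had 0, 7 and 12 counts on vehicle and 0, 4 and 8 on imatinib. Fcer1a was highest in imatinib 3, like the connective tissue proteases, whereas Ms4a2 was highest in vehicle 3, which held 1 protease count. The groups overlapped for both genes, and both were under the filter. With no filter edgeR gave Fcer1a a log2 fold change of 2.83 (adjusted p = 0.48) and Ms4a2 one of -0.58 (adjusted p = 0.848).

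Hdc was the 1 gene of the 10 that rose in the test. It encodes histidine decarboxylase, the enzyme that makes histamine (chr2:126593667-126619299, minus strand), and is also known from basophils, neutrophils and other myeloid cells. Hdc had 39, 93 and 61 counts in vehicle 1, 2 and 3, and 201, 206 and 149 counts in imatinib 1, 2 and 3. The groups did not overlap. Its scaled level was 2.81 ± 1.33 CPM on vehicle and 8.64 ± 1.82 CPM on imatinib (SD, n = 3 libraries each). The log2 fold change was 1.62 with an SE of 0.37 and an adjusted p of 0.025 in edgeR's quasi-likelihood test. Of all 16621 genes tested, 6.15% were called higher and 8.42% lower, 17.5% had imatinib libraries all above the vehicle libraries and 20.2% all below. Against this, 1 of the 4 tested members was called higher, the same 1 did not overlap, and 0 were called lower (0 also at an unadjusted p under 0.05 and by DESeq2). The remaining 6 of the 10 were not tested.

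The call for Hdc was close to the threshold. It was lost without vehicle 1 (log2 fold change 1.32, adjusted p = 0.0708), vehicle 3 (1.57, 0.0796), imatinib 1 (1.58, 0.0511) or imatinib 3 (1.77, 0.0564), and scaled to the summed counts of the CD3 genes Cd3d, Cd3e and Cd3g (0.97, 0.0936). On that last scale the median gene stood at -0.72, so Hdc remained above it.

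Hdc and the proteases shared a pattern across libraries only in part. Vehicle 2 was the highest vehicle library for both, and imatinib 2 was high for both, with 206 Hdc counts and 221 protease counts. Imatinib 1 had 201 Hdc counts and 4 protease counts, while imatinib 3 had 149 and 244. Vehicle 2, with 138 protease counts, had 93 Hdc counts, below imatinib 1. Hdc made up 82.4% of the counts of the 10 genes in imatinib 1 (exact interval 77.01% to 86.9%) and 35.7% in imatinib 3 (31.1% to 40.5%).

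Levels of neutrophil markers were read beside Hdc. The summed level of 11 of them was 91.7 to 143 CPM on vehicle and 134 to 408 CPM on imatinib, and the groups overlapped. In edgeR 0 of the 7 tested were called in either direction, with 5 higher at an unadjusted p under 0.05 and 6 called higher by DESeq2. The median log2 fold change of the 7 tested was 2.68, and 6 of them were above 0. S100a9, a neutrophil calcium-binding protein gene, had 126, 296 and 202 counts on vehicle and 746, 3001 and 387 on imatinib (log2 fold change 2.87, adjusted p = 0.149). Csf3r, the receptor gene for granulocyte colony-stimulating factor, went the other way, with 1983, 2332 and 1961 counts on vehicle and 1355, 1914 and 1778 on imatinib (-0.21, adjusted p = 0.46, groups overlapping), and it made up most of the summed level on vehicle. The highest neutrophil level and the highest Hdc level were both in imatinib 2 (408 CPM and 206 Hdc counts). Imatinib 1 had nearly as many Hdc counts (201) at a neutrophil level of 149 CPM. Vehicle 2 had 93 Hdc counts at a neutrophil level of 143 CPM. Of the basophil markers, the basophil proteases Mcpt8 and Prss34 were at 0 in all 6 libraries, and Cd200r3 had 2, 0 and 10 counts on vehicle and 0 on imatinib. Il3ra and Il4, which lymphocytes or other myeloid cells also express, had 416 to 737 and 12 to 36 counts a library, and neither was called (adjusted p = 0.583 and 0.945). The part of neutrophil RNA in the Hdc result was not tested.

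Gata2, a transcription factor of blood progenitors, mast cells and endothelium (chr6:88193891-88207032, plus strand), followed neither Hdc nor the proteases. It had 7, 5 and 31 counts on vehicle and 39, 12 and 7 on imatinib. Imatinib 1 and vehicle 3 were highest and held 4 and 1 protease counts, and imatinib 3, with the most protease counts, had 7. The groups overlapped. Its log2 fold change was 0.53 with an SE of 0.90 and an adjusted p of 0.735, and it ran from -0.44 without imatinib 1 to 1.77 without vehicle 3, not called in either case. Gata1, a related factor of mast cells, erythroid cells and eosinophils, had at most 5 counts in any library.

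Summed over the 10 genes, the level was 2.08, 11.04 and 4.52 CPM in vehicle 1, 2 and 3 and 11.03, 21.9 and 18.6 CPM in imatinib 1, 2 and 3. Vehicle 2 and imatinib 1 were level, so the groups overlapped slightly, whereas with library totals in place of TMM scaling they did not (exact permutation p = 0.1, the smallest possible). The means were 5.88 ± 4.63 and 17.2 ± 5.58 CPM (SD, n = 3 each), and the two-sided exact permutation test gave p = 0.2, where 0.1 is the smallest possible. Without Hdc and Gata2, which other cells also express, the means were 2.45 ± 3.59 and 7.65 ± 6.47 CPM (exact permutation p = 0.4). Because the CD3 share of the libraries differed, the counts were also set against the summed counts of Cd3d, Cd3e and Cd3g. Per 1000 CD3 counts there were 4.08, 17.4 and 12.7 counts of the 10 genes on vehicle and 12.1, 33.8 and 22.0 on imatinib (exact permutation p = 0.3). Hdc alone had 3.12, 6.65 and 7.40 on vehicle and 9.99, 15.7 and 7.87 on imatinib (exact permutation p = 0.1, the smallest possible). On this scale imatinib 3 stood close to vehicle 3.

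**Figure D3:**
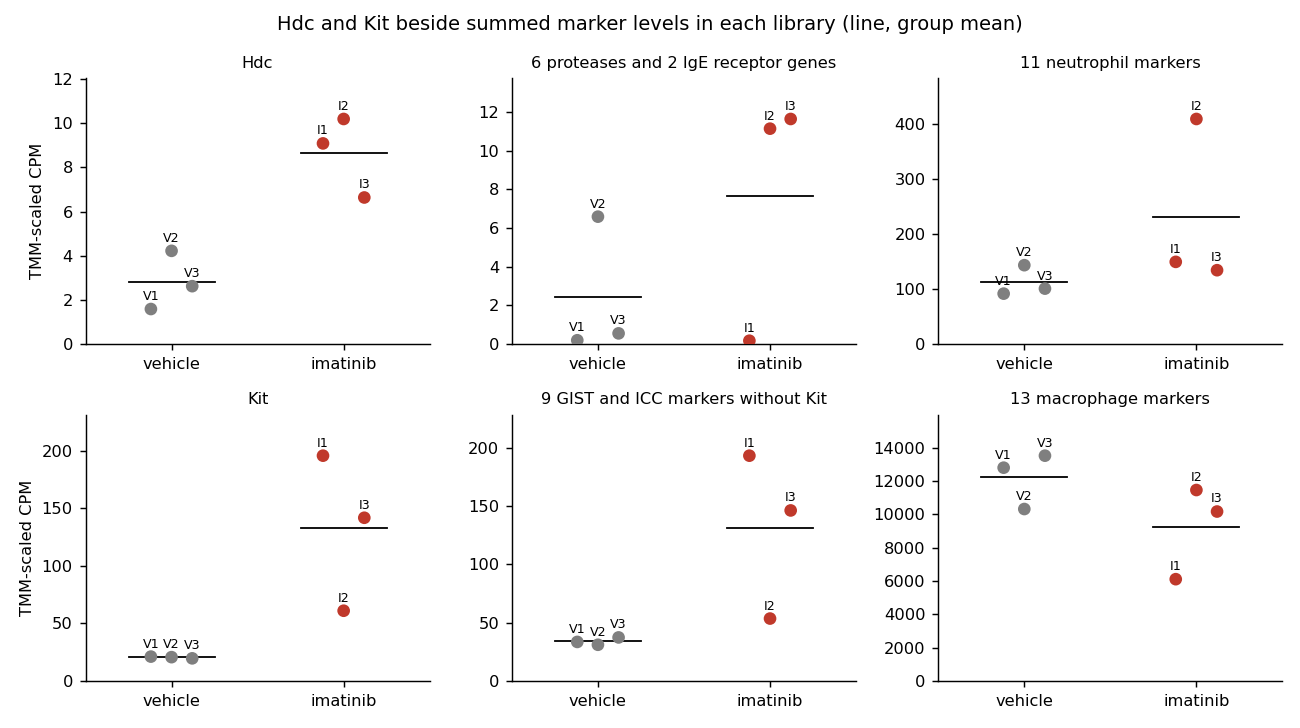
TMM-scaled CPM of Hdc, of the 6 protease and 2 IgE receptor genes summed, of Kit, and of 3 summed marker lists in each library, as points for vehicle 1 to 3 (grey) and imatinib 1 to 3 (red), with a line at the group mean and axes from 0. Hdc and Kit are higher in every imatinib library, while the summed protease and receptor genes are high only in vehicle 2, imatinib 2 and imatinib 3.

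The target of imatinib, Kit, is also the growth factor receptor of mast cells. Kit had 518, 455 and 456 counts on vehicle and 4334, 1234 and 3184 on imatinib, with no overlap. Its log2 fold change was 2.70 with an SE of 0.43 and an adjusted p of 0.0173, a call lost without vehicle 1 (2.70, 0.0653), vehicle 2 (2.70, 0.07), vehicle 3 (2.67, 0.0721) or imatinib 3 (2.64, 0.0565), and with no filter on low counts (2.68, 0.0504). The library with the most Kit counts, imatinib 1, had 4 protease counts, and imatinib 2, the lowest of the imatinib libraries for Kit, had 221. Tumor cells and interstitial cells of Cajal, from which GIST arises, express Kit too. A list of 9 such markers without Kit summed to at most 37.3 CPM on vehicle and 193, 53.5 and 146 CPM in imatinib 1, 2 and 3. The order of the imatinib libraries was that of Kit, but on vehicle the markers were highest in vehicle 3 (33.5, 31.02 and 37.3 CPM) and Kit in vehicle 1 (21.1, 20.7 and 19.6 CPM). Their part in the Kit result was not tested. Kitl, which encodes the KIT ligand, had 72, 57 and 134 counts on vehicle and 175, 41 and 97 on imatinib (log2 fold change 0.34, adjusted p = 0.702).

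Further genes of mast cells ranged from absent to abundant. Of a list of 20, 11 were tested, 1 was higher (Kit) and 2 were lower (Hpgds and Ndst2), with a median log2 fold change of 0.21 against 0.01 over all genes tested. Tpsab1, a further tryptase gene, and the receptor genes Mrgprb1 and Mrgprb13 were at 0 in all 6 libraries. Imatinib 2 alone held counts of Mcpt9 (11), of the chymase gene Cma2 (15) and of Mrgprb2, the receptor for basic secretagogues on connective tissue mast cells (5). Of the 50-base stretches of Mcpt9, 18.8% are also in Cma2, and of those of Cma2, 40.9% are in Mcpt9, so their counts are uncertain between them. Imatinib 3, where Cma1, Mcpt4 and Tpsb2 were found, had 0 counts of all 3. The pair of imatinib libraries with the most protease RNA thus differed in which of the scarcer genes they held. All of these but Kit, Hpgds and Ndst2 were named after their values were seen.

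Genes that mast cells use but share with other leukocytes were abundant, and some passed the test in each direction. Hpgds, the prostaglandin D2 synthase of mast cells and some macrophages, fell from 150 ± 19.0 to 66.4 ± 11.7 CPM (SD, n = 3 each, log2 fold change -1.18, adjusted p = 0.00571 in edgeR). It was the 1 gene called of 7 for arachidonic acid metabolism (median -0.17), where 3 were lower by DESeq2. Ndst2, needed to sulfate the heparin of granules, fell from 81.9 ± 5.73 to 44.2 ± 9.38 CPM (-0.89, 0.0115), a call lost without imatinib 3 (-0.84, 0.0525). Both genes had at least 823 counts in every library, including those with nearly no protease counts.

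Of 14 genes of the pathway below the IgE receptor, 3 fell (7 at an unadjusted p under 0.05 and 5 by DESeq2), 0 rose (1 and 1) and the median log2 fold change was -0.36. Over all genes tested 8.42% fell and 6.15% rose, and the list was not tested against them. Gab2, an adaptor that couples the receptor to PI3 kinase, fell from 148 ± 23.7 to 75.9 ± 11.9 CPM (-0.96, adjusted p = 0.0099). The adaptor gene Lat2 (-0.89, 0.0283) and the inhibitory phosphatase gene Inpp5d (-0.48, 0.0308) also fell. The call for Lat2 was lost without vehicle 1, 2 or 3 or imatinib 3 (adjusted p 0.0525 to 0.0804), and that for Inpp5d without any library but imatinib 2 (0.056 to 0.0936). Fcer1g, the receptor's shared γ chain, had between 5824 and 12557 counts in every library (-0.36, adjusted p = 0.281), against at most 12 for the α or β chain. These genes also work in macrophages and B cells. A list of 13 macrophage markers summed to 10310 to 13510 CPM on vehicle and 6102 to 11450 CPM on imatinib, with 2 of 12 tested called higher (Mrc1 and Lyz2) and 0 lower (3 at an unadjusted p under 0.05 and 4 by DESeq2). The call for Mrc1 was lost without vehicle 1, vehicle 2 or imatinib 3 (adjusted p 0.0912 to 0.0966), and that for Lyz2 without any library but imatinib 1 (0.0615 to 0.117) and with no filter on low counts (0.0697). Their part in these results was not tested.

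Of 10 genes for granule storage and release, 2 rose and 1, Ndst2, fell. Rab27a, a GTPase of granule docking, rose by 0.58 on the log2 scale (adjusted p = 0.0284), a call lost without any library but imatinib 2 (0.0544 to 0.0828). Srgn, the granule proteoglycan core, rose by 0.35 (adjusted p = 0.0441), and that call was lost without each of the 6 libraries (0.0774 to 0.139). Both are also used by T cells. Scaled to CD3 counts both stood below 0 (-0.12 and -0.38, neither called) but above the median gene at -0.72. Slc18a2, which loads histamine into granules, had between 28 and 45 counts in every library (0.19, adjusted p = 0.799), and its groups overlapped. Of 18 growth factor, receptor and survival genes, Kit rose, and the survival gene Bcl2l1 (-0.81, adjusted p = 0.00733) and the cytokine receptor gene Csf2rb2 (-0.72, 0.0441) fell. The call for Csf2rb2 was lost without any library but imatinib 2 (0.051 to 0.13), and the median of the 15 tested was 0.12. The mast cell growth factor genes Il3 and Il9 were at 0 in every library.

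Promoter sequences of 8 of the 10 genes were found in the RefSeq table (GRCm38.p6), and the 150 bases before the start were searched for the letters GATA preceded by A or T and followed by A or G, on either strand, the motif bound by GATA2 and its relatives. At least 1 match was present for 6 of these 8 genes (Cpa3, Cma1, Mcpt1, Mcpt4, Ms4a2 and Fcer1a) and for neither Hdc nor Gata2 itself. Over all 32851 promoters of the table, 16% held a match in that window. The windows of 4 genes with a match and of Hdc, the called gene without one, are shown with matches in capitals.
Cpa3, chr3:20242182-20242331, minus strand: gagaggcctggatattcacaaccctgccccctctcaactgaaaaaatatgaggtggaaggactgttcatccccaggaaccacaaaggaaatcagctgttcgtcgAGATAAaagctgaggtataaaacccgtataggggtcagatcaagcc
Mcpt1, chr14:56017814-56017963, plus strand: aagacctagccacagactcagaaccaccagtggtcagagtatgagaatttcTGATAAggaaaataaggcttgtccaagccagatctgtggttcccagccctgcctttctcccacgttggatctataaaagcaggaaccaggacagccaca
Mcpt4, chr14:56062311-56062460, minus strand: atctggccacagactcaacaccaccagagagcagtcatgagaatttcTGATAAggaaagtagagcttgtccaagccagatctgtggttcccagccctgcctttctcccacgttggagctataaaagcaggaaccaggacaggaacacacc
Ms4a2, chr19:11623720-11623869, minus strand: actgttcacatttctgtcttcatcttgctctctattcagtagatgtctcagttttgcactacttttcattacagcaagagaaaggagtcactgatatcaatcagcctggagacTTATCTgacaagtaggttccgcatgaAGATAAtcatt
Hdc, chr2:126618679-126618828, minus strand: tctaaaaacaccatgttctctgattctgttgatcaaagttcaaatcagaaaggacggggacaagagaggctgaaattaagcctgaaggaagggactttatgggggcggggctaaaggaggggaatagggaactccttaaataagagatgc
The RefSeq start of Hdc lies inside the GENCODE span given above, so its window is not the sequence before the GENCODE start. The windows of Mcpt1 and Mcpt4 were identical at 110 of 146 aligned bases (75.3%), with the GATA match in the same place and a longest identical run of 53 bases. Even so, Mcpt1 was counted in 5 of the 6 libraries and Mcpt4 in 1. A match is a description of the letters and not a measured binding site.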

How the data were processed

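Total counts per gene were deposited as raw counts: the authors aligned reads to GRCm38 (mm10) with STAR and counted them with featureCounts. The annotation, strand setting and handling of multi-mapping reads were not given in the sources used here. Rows with no gene name (3016 of 57332, 0.118% to 0.158% of the counts) were left out, 1013 exact repeats were counted once, 78 symbols were summed over their rows, and 3 columns matching no sample were not used. Imatinib and vehicle libraries were compared with edgeR 4.0.16 (R 4.3.3): default filter on low counts, TMM scaling, robust quasi-likelihood test, Benjamini-Hochberg adjustment, calls at an adjusted p under 0.05, checked on simulated data. Sums and shares were compared by exact permutation tests over libraries. Alternatives were RLE factors, library totals, scaling to CD3 counts, no filter, a filter of 1 CPM in 3 libraries, the replicate block, each library left out, DESeq2 1.42.0 and limma voom 3.58.1, and leaving Hdc and Gata2 out of the sums was added after seeing the data. The members and lists were chosen with earlier results of these data known. Named were all members, up to 4 called genes with the smallest p of each other list, or the 2 with the highest mean count where none passed, and Kit, Kitl, Trdc, Cd3e, Trac, Foxp3 and C1qa. Cd3e was not called in edgeR (adjusted p = 0.0927). Some genes of that rule appear only in the list counts below or under CD3 scaling. They are those of the eosinophil, B and plasma cell, fibroblast, γδ T cell, other lymphocyte and GIST lists, Kit, Trdc and Cd3e aside. Gata1, Tpsab1, Mrgprb1, Mrgprb13, Mrgprb2, Mcpt9, Cma2, Mcpt8, Prss34, Cd200r3, Fcer1g, Slc18a2, Il3 and Il9 fall outside that rule and were picked once their values had been seen. Lists not described above gave these counts in edgeR: eosinophil markers 0 of 5 tested (1 at an unadjusted p under 0.05, 0 by DESeq2) and B and plasma cell markers 0 of 9 (1 and 1). Fibroblast markers gave 0 of 8 (5 and 5) and basophil markers 0 of 2 (0 and 0). Called higher were 4 of 7 γδ T cell markers (7 and 7), 4 of 10 GIST and interstitial cell markers (8 and 8) and 4 of 9 other lymphocyte markers (4 and 4). The other lymphocyte list was split in direction, with a median log2 fold change of -0.27. In it 0 were called lower in edgeR, 3 were lower at an unadjusted p under 0.05 and 2 by DESeq2.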

Additional observations from a re-analysis of the deposited data

How the results depend on the processing

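The counts behind the mast cell genes set the limits: 6 of the 10 were under the filter, and 5 were highest in 1 library, imatinib 3. Over all genes, 1022 were called higher and 1399 lower. Scaled to CD3 counts, which moved the median log2 fold change of all genes to -0.72, the calls were 135 and 4678. The replicate number as a block gave 173 and 437, and 0 of the 10 members, and Hdc then stood at 1.69 on the log2 scale (adjusted p = 0.0579). Among the genes chosen by the naming rule 15 calls were lost under the block, with Lat2 (0.0602), Inpp5d (0.116), Rab27a (0.0764), Srgn (0.152), Csf2rb2 (0.0633) and Lyz2 (0.0684) among them. Libraries of the same number did not deviate together (correlations of -0.21, -0.06 and -0.06, against -0.11 to 0.18 for other numbers). With so few libraries these correlations cannot settle whether the numbers pair them. Leaving out 1 library at a time gave 182 to 1171 genes higher, 503 to 1780 lower and 0 to 1 member. DESeq2 called 2 members, Hdc and Cma1, and scaling to CD3 counts 0. RLE factors, library totals, no filter, the stricter filter and limma voom kept 1 member called. Under CD3 scaling 4 called genes among those chosen by the naming rule changed sign: Rab27a (-0.12), Srgn (-0.38), Mrc1 (-0.046) and Trac (-0.13), none of them called then. Genes called under neither that also changed sign were Gata2 (-0.48), Kitl (-0.60), Il4 (-0.59), Prg2 (-0.14), Siglecf (-0.40), Igkc (-0.016) and Cd3e (-0.091). The summed level of the 10 genes and the mucosal share kept their direction in every alternative run, but their permutation tests cannot pass the threshold with so few libraries. The causes were not tested.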
